A study of Mus musculus with 2 samples.

Results

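The major histocompatibility complex (MHC) class I genes examined here were 10 of the 32285 genes counted in 2 single-cell libraries of mouse pancreatic tumours. They were found by symbol and comprised the classical genes H2-K1 and H2-D1, the nonclassical genes H2-Q4, H2-Q6, H2-Q7, H2-T22, H2-T23 and H2-M2, and the genes B2m and Nlrc5. All 10 were detected, and together they held 0.367% of the unique molecular identifiers (UMIs, 1 per captured RNA molecule) of the library labelled KPC-shV and 0.437% of those of the library labelled KPC-shZEB1.

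Class I molecules carry short peptides from inside the cell to its surface. Each is a heavy chain, encoded by an H2 gene, paired with beta-2 microglobulin, the product of B2m. The classical heavy chains are polymorphic and present peptides to CD8+ T cells. Nonclassical chains are less variable and often have narrower roles: H2-T23 encodes Qa-1, a ligand of the CD94/NKG2A receptor of NK cells, the H2-Q7 product is known as Qa-2, and H2-T22 is bound by some gamma-delta T cells. Nlrc5 encodes a transactivator that acts with factors on conserved boxes of class I promoters. Both interferons and NF-kappaB are known inducers of these genes, and tumours often lower them.

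KPC cells are a mouse pancreatic cancer line from animals with tumour-driving alleles under Pdx-1-Cre, which acts in the pancreas. Stable lines were made with lentivirus and selected with puromycin or geneticin. KPC-shV carried a control hairpin, while the hairpin of KPC-shZEB1 targets Zeb1, a transcription factor of epithelial-mesenchymal transition. Each line was grown in the mouse pancreas as an orthotopic allograft. One tumour per group was dissociated. The study states that the tumours used for single-cell RNA came from gemcitabine-treated mice, and it describes immunocompetent hosts for this model. The labels themselves give no drug, age or host strain. C57BL/6J, BALB/c and NSG mice, aged a few weeks, are listed in the study without naming the hosts of these 2 tumours. Host cells and tumour cells carry the same class I symbols, so the 2 sources were separated only through cell classes. The hosts' class I haplotype was not given in the sources used here, and reads were counted against the C57BL/6 sequence.

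Each library was 1 mouse, so no difference below has a replicate check and no test was made. Values are UMIs per 1000000 UMIs of the same cells (CPM), given for KPC-shV first and the library labelled KPC-shZEB1 second. Ratios are the second over the first, with 95% intervals that cover counting error only and leave out the spread between mice. A UMI counts a 3′ end once whatever the transcript's length, so levels of different genes are compared as molecules.

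After filtering, 11412 and 12128 cells remained, with medians of 3719 and 4260 UMIs. They were clustered without the 10 genes and the related gene lists, and clusters were named "X-like" from markers. Granulocyte-like cells were 60.2% and 35.6% of cells, and the largest other classes were monocyte-macrophage-like (1622 and 2523 cells), tumour-like (992 and 1228), T-like (372 and 1202) and B-like (289 and 1224). The target gene went against the label: in tumour-like cells Zeb1 measured 131 and 174 CPM, with a ratio of 1.33 (1.27 to 1.40). This ratio was not computed for the single clusters of that class. The class includes a cluster mostly of the second library (9 and 224 cells). It leaves out an unnamed cluster led by Prg4 and Cntn5 (501 and 202 cells). Background RNA from other cells was not subtracted for Zeb1. The study reports its own check of the knockdown in the KPC cells, and Zeb1 staining of tumours. The groups are named by their labels.

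Of the 10 genes, 8 lie in the H2 complex on mouse chromosome 17 (GRCm38, 1-based, GENCODE annotation, all protein-coding). From the centromeric side these are H2-K1 (33996017 to 34000347, minus strand), H2-D1 (35262730 to 35267499, plus), H2-Q4 (35379617 to 35385290, plus), H2-Q6 (35424850 to 35430055, plus), H2-Q7 (35439155 to 35443773, plus), H2-T23 (36029773 to 36032855, minus), H2-T22 (36037128 to 36042747, minus) and H2-M2 (37480851 to 37483552, minus). B2m lies on chromosome 2 from 122147686 to 122153083 and Nlrc5 on chromosome 8 from 94434356 to 94527272, both on the plus strand. Class I genes are near copies of each other, so the last 500 bases of each transcript were searched for 90-base stretches shared with other genes. Every stretch was unique for H2-K1, H2-D1, B2m, Nlrc5, H2-Q7 and H2-M2. Unique stretches made up 90.5% for H2-Q4, 89.1% for H2-Q6, 86.6% for H2-T23 and 73.5% for H2-T22. The other 26.5% of H2-T22 were shared with H2-T10, which was not analysed here, so H2-T22 is the least certain of the 10.

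The promoters of 9 of the 10 genes matched a RefSeq entry (GRCm38.p6), all but Nlrc5. The 250 bases before the start are shown for a classical gene, a Q gene, a T gene, the light chain and H2-M2, because the last of these had a different pattern over cells from the rest. Capitals mark motifs found by letter search on both strands. The first was a kappaB-like motif (GGGGATTCC), as bound by NF-kappaB. An X2-box-like motif (TGACGC) belongs to the boxes used with Nlrc5. The pentamer CCAAT was searched as the core of the Y box. An ISRE-like motif, for interferon-stimulated response elements, was searched as GAAA on either side of 2 free bases. An interferon response-like motif was the run of 11 capitals in H2-K1.
H2-K1 (chr17:34000348-34000597, minus strand): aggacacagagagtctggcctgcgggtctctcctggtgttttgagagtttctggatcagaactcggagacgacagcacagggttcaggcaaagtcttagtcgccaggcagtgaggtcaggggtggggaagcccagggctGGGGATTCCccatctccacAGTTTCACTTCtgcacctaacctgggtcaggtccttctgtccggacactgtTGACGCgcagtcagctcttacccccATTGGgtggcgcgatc
H2-Q7 (chr17:35438905-35439154, plus strand): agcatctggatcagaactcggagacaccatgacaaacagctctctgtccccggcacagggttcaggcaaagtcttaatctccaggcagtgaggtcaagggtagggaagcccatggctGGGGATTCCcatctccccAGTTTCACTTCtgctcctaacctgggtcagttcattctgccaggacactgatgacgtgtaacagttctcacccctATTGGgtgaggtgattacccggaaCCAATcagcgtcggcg
H2-T22 (chr17:36042743-36042992, minus strand): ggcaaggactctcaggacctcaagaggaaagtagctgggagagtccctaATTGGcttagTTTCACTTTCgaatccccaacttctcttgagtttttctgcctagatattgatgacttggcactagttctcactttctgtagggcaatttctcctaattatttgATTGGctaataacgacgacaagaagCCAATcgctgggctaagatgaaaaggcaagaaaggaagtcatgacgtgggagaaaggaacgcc
B2m (chr2:122147437-122147686, plus strand): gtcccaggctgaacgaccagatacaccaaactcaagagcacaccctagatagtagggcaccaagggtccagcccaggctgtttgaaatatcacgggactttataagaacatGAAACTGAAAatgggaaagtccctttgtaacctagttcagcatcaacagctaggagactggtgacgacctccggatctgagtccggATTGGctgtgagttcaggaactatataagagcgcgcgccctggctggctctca
H2-M2 (chr17:37483555-37483804, minus strand): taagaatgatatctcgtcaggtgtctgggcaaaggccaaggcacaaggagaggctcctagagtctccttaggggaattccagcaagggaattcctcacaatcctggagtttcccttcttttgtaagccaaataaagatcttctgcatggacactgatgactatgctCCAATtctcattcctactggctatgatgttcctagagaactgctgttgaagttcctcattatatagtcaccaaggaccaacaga

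The kappaB-like motif was found in H2-K1, H2-D1, H2-Q6 and H2-Q7, and in 0.218% of the 27025 RefSeq promoters searched. In H2-K1 it lay 111 to 103 bases before the start, and the interferon response-like motif followed at 92 to 82 bases. That second motif, taken from the H2-K1 promoter after these promoters had been read, was found in H2-K1, H2-D1, H2-Q4, H2-Q6 and H2-Q7, and in 13 promoters in all (0.0481%). Only H2-K1 and H2-D1 among the 9 held the X2-box-like motif, which 6.14% of promoters have. The search took exact letters only, so near matches such as the tgacgt in the H2-Q7 promoter were not counted. The ISRE-like motif occurred in B2m, H2-T22 and H2-T23, against 3.04% of all promoters. All 9 held CCAAT, as did 34.5% of promoters, and it was the only motif in H2-M2. These matches are letters in a window, and no binding was measured.

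H2-K1 RNA was found in every cell class, and of the main classes NK-like and T-like cells had the most in both libraries. H2-K1 measured 3163 CPM (95% interval 2958 to 3379) and 2818 CPM (2688 to 2953) in regulatory T-like cells, the named class with the most. NK-like cells had 2582 and 2272 CPM and T-like cells as a whole 2294 and 1938 CPM. Mature DC-like cells were near these at 2265 and 2041 CPM, and monocyte-macrophage-like cells had 1801 and 1876 CPM. Tumour-like cells, at 1539.7 and 1787 CPM, lay in the middle of the order, near endothelial-like cells at 1654 and 1694 CPM. Pericyte-like cells, a main class of only 14 and 10 cells, had 888 and 1409 CPM. Of the other main classes the lowest levels were in fibroblast-like cells at 1132 and 1169.6 CPM and granulocyte-like cells at 883 and 1107 CPM. Granulocyte-like cells were below fibroblast-like cells in both libraries, although their intervals in the second library, 1089 to 1125 and 1149 to 1190.1 CPM, lay close together. B2m followed another order: monocyte-macrophage-like cells had the most, 1709.5 and 1836 CPM, and B-like cells the least, 707 and 917 CPM.

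**Figure D1:**
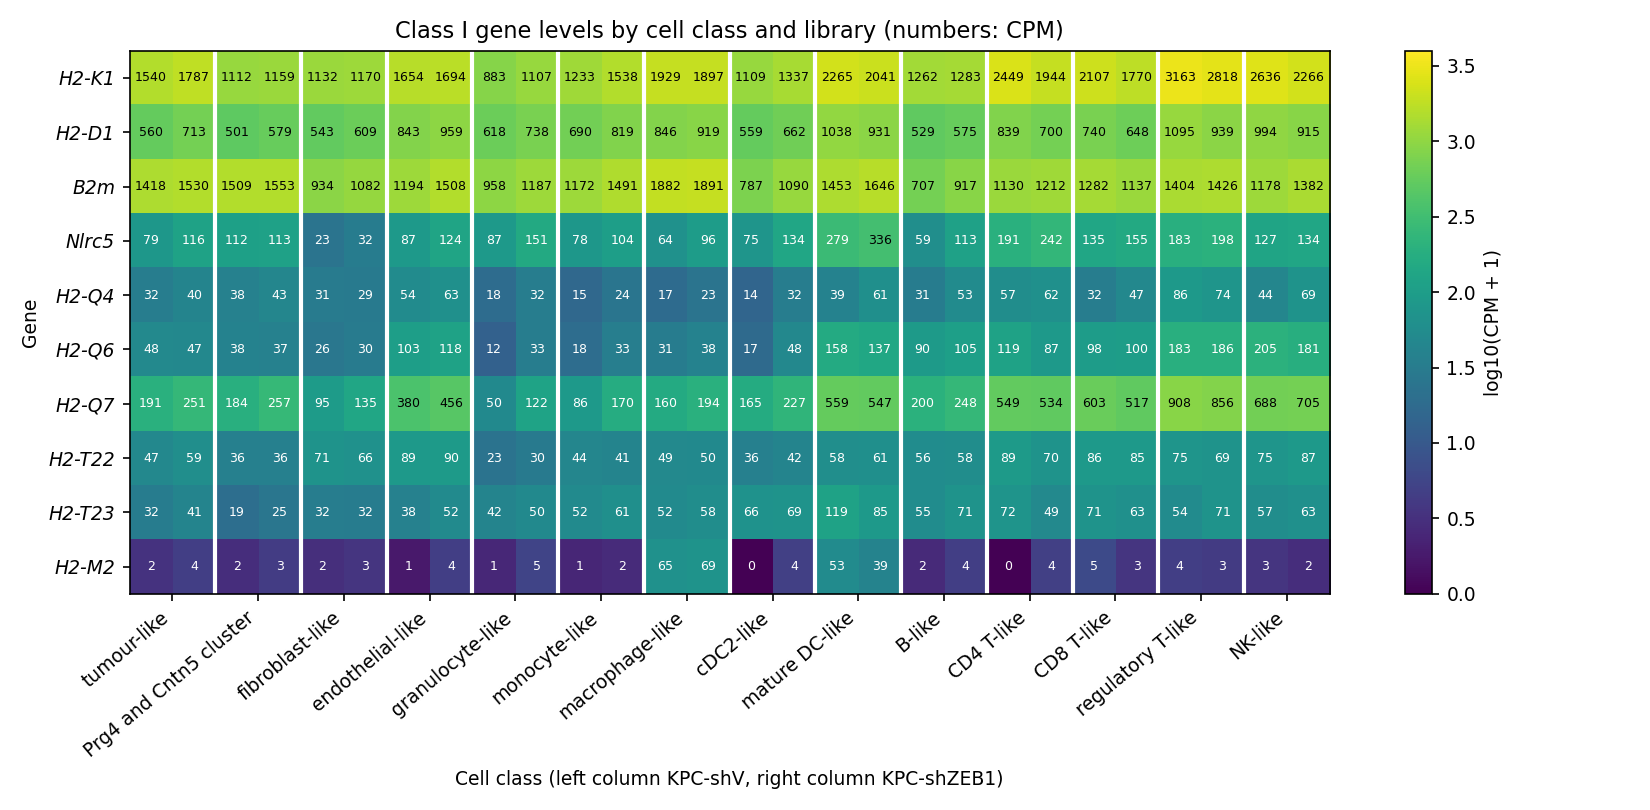
Heat map of the 10 class I genes (rows) in 14 cell classes (columns, a pair for each class with the library labelled KPC-shV on the left), with the level in CPM printed in each cell and shaded on a log scale. H2-K1 is at 883 CPM or more in every class, while H2-M2 has its highest levels in macrophage-like and mature DC-like cells.

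H2-D1 did not keep a fixed proportion to H2-K1. There were 34.6 and 36.2 H2-D1 UMIs per 100 H2-K1 UMIs in T-like cells. The values were 36.4 and 39.9 in tumour-like, 41.9 and 44.8 in B-like, 43.9 and 48.4 in macrophage-like, 51.0 and 56.6 in endothelial-like and 55.9 and 53.2 in monocyte-like cells. Of the 14 classes plotted granulocyte-like cells had the highest value, 70.0 (68.6 to 71.6) and 66.7 (65.0 to 68.4), and in their cluster led by Retnlg and Ngp the 2 genes were about equal, with 105 and 98.4 per 100. The value was higher in the library labelled KPC-shZEB1 in 9 of 14 classes, and in 5 of the 14 the intervals of the libraries did not overlap. Tumour-like cells stood nearer to T-like cells than to granulocyte-like cells.

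Among the nonclassical genes H2-Q7 had the most UMIs. Regulatory T-like cells had 908 CPM (95% interval 799.9 to 1028) and 856 CPM (785 to 932) of it, all T-like cells 655 and 589 CPM, mature DC-like cells 559 and 547 CPM and endothelial-like cells 380.3 and 456 CPM. Tumour-like cells held 191 and 251 CPM, above fibroblast-like cells at 95.1 and 135 CPM and granulocyte-like cells at 49.9 and 122 CPM. H2-Q6 and H2-Q4 were lower. Of H2-Q6, T-like cells had 123 and 116 CPM, tumour-like cells 48.2 and 47.4 CPM and granulocyte-like cells 12.1 and 32.7 CPM. H2-T23 was spread more evenly: T-like cells had 63.8 and 54.3 CPM, B-like cells 55.2 and 70.7 CPM, monocyte-macrophage-like cells 57.4 and 61.5 CPM and tumour-like cells 31.6 and 40.7 CPM. For H2-T22 T-like cells had 87.7 and 75.5 CPM and tumour-like cells 46.7 and 59.4 CPM.

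Nonclassical UMIs were also set against the classical genes, in classes of at least 50 cells. They ranged from 9.71 and 14.7 per 100 classical UMIs in granulocyte-like cells to 37.8 and 39.5 in unnamed T or NK cells. In the second library monocyte-like cells, at 14.04, were below granulocyte-like cells. Monocyte-like cells (11.3 and 14.04), macrophage-like cells (13.5 and 15.3), fibroblast-like cells (15.3 and 16.6) and tumour-like cells (16.8 and 17.7) lay at the low end. B-like cells (24.2 and 29.0), endothelial-like cells (26.6 and 29.5), NK-like cells (29.5 and 34.8) and CD8 T-like cells (31.4 and 33.7) were higher. The value was higher in the library labelled KPC-shZEB1 in all 14 classes, and in 7 of them the intervals of the libraries did not overlap. The Q genes and the T genes differed in this: Q gene UMIs per 100 classical UMIs were higher there in 14 of 14 classes with 7 intervals apart, and T gene UMIs in 9 of 14 with 0 apart. With background RNA subtracted, the ratio between libraries was 1.97 for the nonclassical and 1.204 for the classical sum in granulocyte-like cells, and 1.23 and 1.19 in tumour-like cells.

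**Figure D2:**
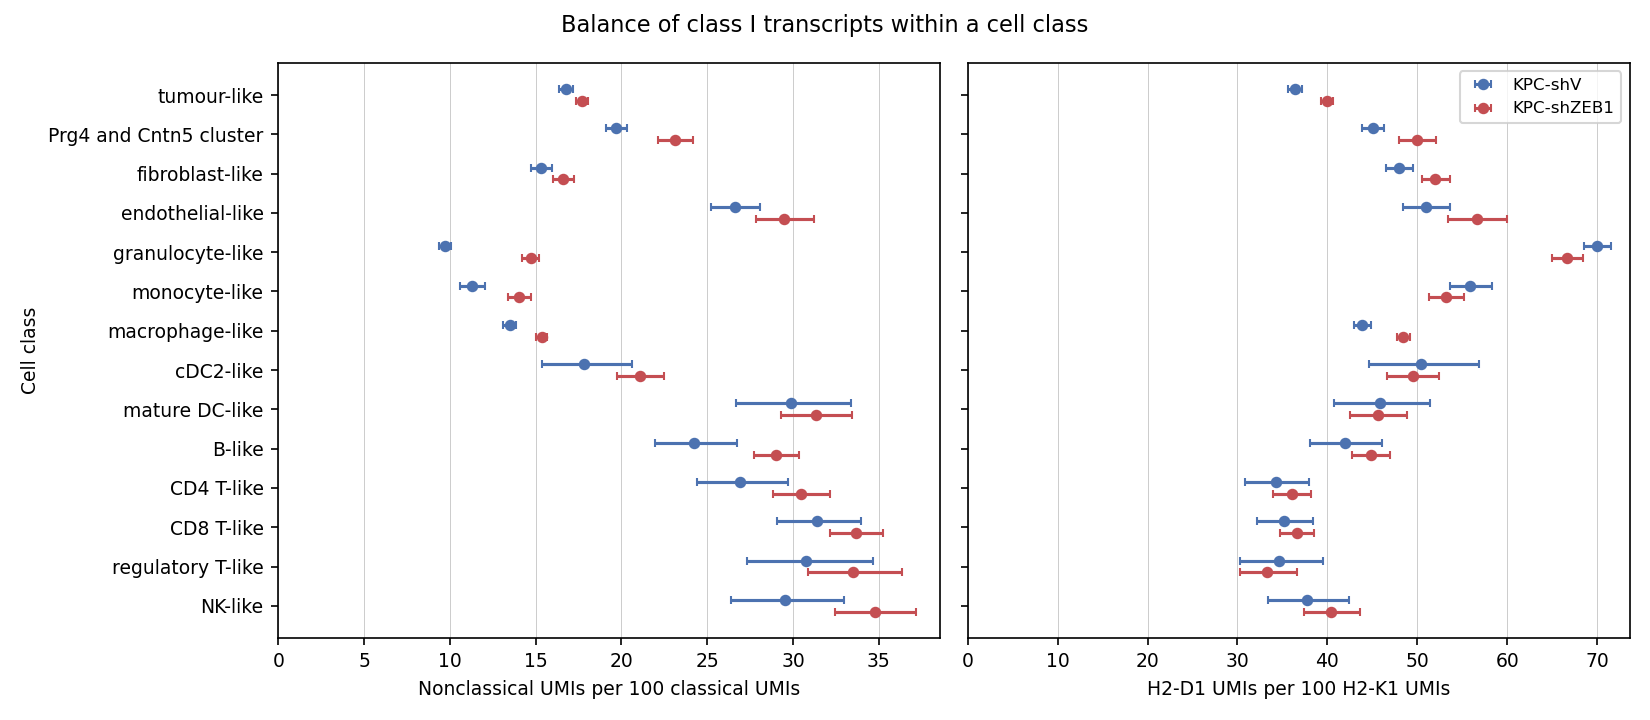
Nonclassical UMIs per 100 classical UMIs, and H2-D1 UMIs per 100 H2-K1 UMIs, by cell class (rows) for the library labelled KPC-shV and the library labelled KPC-shZEB1, with 95% counting intervals. Granulocyte-like cells have the lowest nonclassical share in the first library (9.71), while in the second (14.7) monocyte-like cells are lower. Granulocyte-like cells have the highest H2-D1 share (70.0 and 66.7). The nonclassical value of the second library is the higher one in 14 of 14 classes.

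H2-M2, an M-region gene distal to the others, was the most restricted member. Monocyte-macrophage-like cells had 55.3 and 67.9 CPM. T-like cells had 3.23 and 3.74 CPM, tumour-like cells 2.32 and 3.62 CPM, fibroblast-like cells 2.02 and 2.57 CPM and granulocyte-like cells 1.49 and 4.55 CPM. A UMI of it was found in 13.7% (11.6 to 16.1) and 16.7% (14.9 to 18.6) of macrophage-like cells, which had medians of 12853 and 14847 UMIs. The share was 1.64% (0.660 to 3.34) and 2.08% (1.003 to 3.798) in monocyte-like cells, with medians of 11433.5 and 10549 UMIs, and 0.466% (0.319 to 0.657) and 1.34% (1.02 to 1.73) in granulocyte-like cells, with medians of 3149 and 2907 UMIs. After thinning each cell to 1000 UMIs the macrophage-like shares were 2.98% and 3.57%, near the level of 1 UMI, and no difference is read from them.

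Within the myeloid cells H2-M2 differed by sub-cluster. The sub-cluster led by Adamdec1, Ccl24 and Mmp13 held 189 and 139 CPM, with a UMI in 43.5% and 36.7% of cells, and that led by Vcam1 and Gdf15 held 112 and 193 CPM, with 34.8% and 45.05%. Lower levels were found in the sub-clusters led by Gpnmb (76.3 and 88.1 CPM), Ccl17 and Ear2 (49.9 and 25.4 CPM) and Apoc2 and Pf4 (40.01 and 10.9 CPM). Mature DC-like cells, led by Fscn1 and Ccr7, had 53.5 and 39.1 CPM. Macrophage-like sub-clusters led by Pclaf and Top2a (23.6 and 18.3 CPM) and by Fhad1 and Fcrls (8.46 and 10.2 CPM) were below mature DC-like cells, and 2 others were near zero: the one led by Ptprm, Bmp2 and Ccl8 had 1 and 8 UMIs (0.593 and 3.32 CPM), and the one led by Fcna and Lyve1 had 0 and 3 UMIs, where a count of 0 allows up to 2.29 CPM. Monocyte-like sub-clusters held at most 3.78 CPM.

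The 2 libraries differed in opposite ways between these sub-clusters. H2-M2 was higher in the library labelled KPC-shZEB1 in the Vcam1 and Gdf15 sub-cluster, with a ratio of 1.72 (1.48 to 2.005), and lower in the Adamdec1 sub-cluster at 0.735 (0.659 to 0.821), the Ccl17 and Ear2 sub-cluster at 0.510 (0.385 to 0.672) and the Apoc2 and Pf4 sub-cluster at 0.272 (0.158 to 0.453). The Vcam1 and Gdf15 and the Ccl17 and Ear2 sub-clusters stayed unnamed and are not counted as macrophage-like cells, which had 65.1 and 68.8 CPM, a ratio of 1.06 (0.974 to 1.15). A sub-cluster led by Nos2 and Ly6i, mostly from the library labelled KPC-shZEB1 (9 and 118 cells), held 94.5 and 168.8 CPM.

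**Figure D3:**
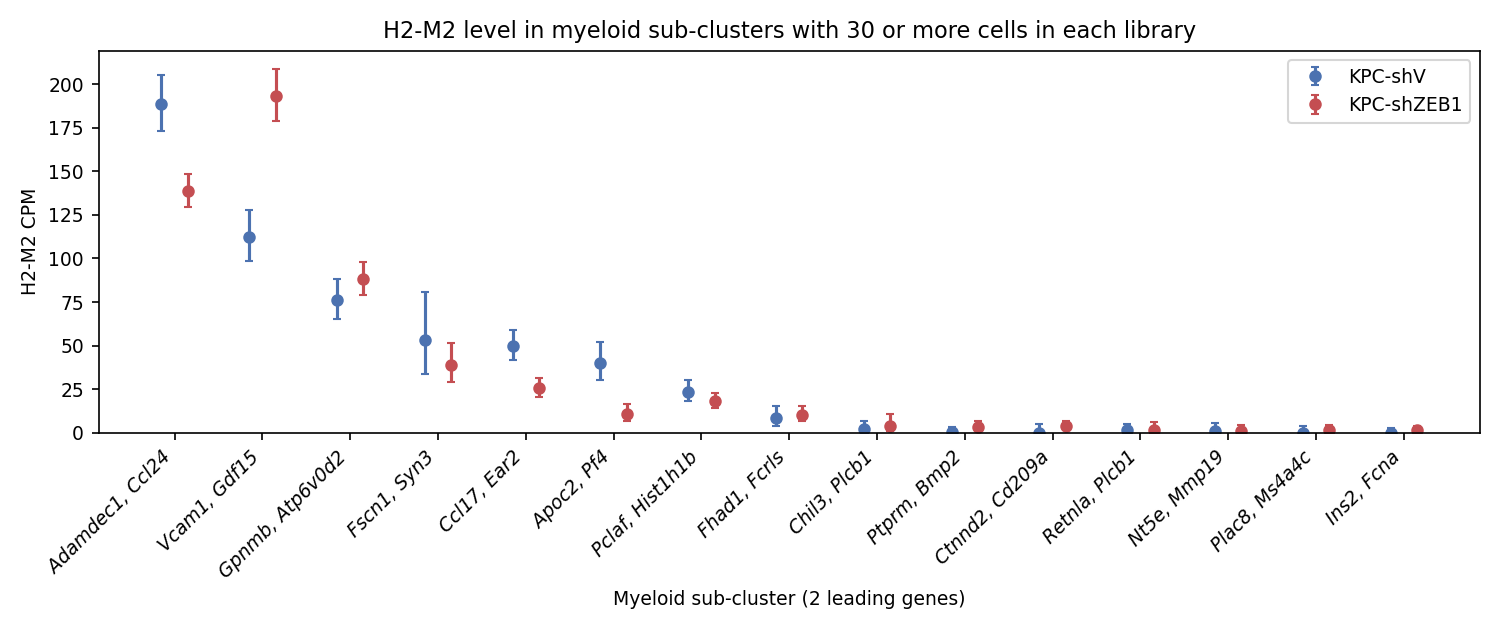
H2-M2 level in CPM (vertical axis) in the 15 myeloid sub-clusters with at least 30 cells in each library (horizontal axis, named by leading genes), with 95% counting intervals for both libraries. The sub-clusters led by Adamdec1 and by Vcam1 stand at 112 to 193 CPM, and the one led by Ptprm, Bmp2 and Ccl8 stands at 0.593 and 3.32 CPM.

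In tumour-like cells 9 of the 10 genes were higher in the library labelled KPC-shZEB1, as were 57.7% of all genes tested. Classical UMIs measured 2099.8 CPM (95% interval 2079.9 to 2119.9) and 2500.1 CPM (2482 to 2519), a ratio of 1.19 (1.18 to 1.21). H2-K1 went from 1539.7 to 1787 CPM, a ratio of 1.16 (1.14 to 1.18), and H2-D1 measured 560.1 and 713 CPM, a ratio of 1.27 (1.24 to 1.30). B2m differed less, at 1418 and 1530.3 CPM, a ratio of 1.08 (1.06 to 1.10). Nlrc5 had 79.4 and 116 CPM, a ratio of 1.46 (1.38 to 1.55).

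The nonclassical sum was 352 and 442 CPM, a ratio of 1.26 (1.22 to 1.29). H2-Q7 had 191 and 251 CPM, a ratio of 1.31 (1.26 to 1.37), and H2-Q4, H2-T22 and H2-T23 had ratios of 1.251, 1.27 and 1.29. H2-Q6, the exception, measured 48.2 and 47.4 CPM, a ratio of 0.985 (0.907 to 1.07). A 1.5-fold difference was reached by 1 of the 10, H2-M2, at 2.32 and 3.62 CPM, a level like the 3.23 and 3.74 CPM of T-like cells. With background RNA subtracted the H2-M2 ratio was 0, and as a mean over cells it was 1.04 and 0 of the 10 were past 1.5-fold. In tumour-like cells 13.9% of the 15567 genes tested were at least 1.5-fold higher and 4.32% at least 1.5-fold lower, so the members' 1 of 10 was near the background. The median log2 ratio of the 10 was 0.35, against 0.05 for all genes tested.

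The tumour-like class joined 3 clusters that differed from each other. The main one, led by Epcam and Krt19 among others (672 and 691 cells), had 1527 and 1583 CPM of H2-K1, a ratio of 1.04 (1.02 to 1.05), and 1380.4 and 1422 CPM of B2m. In the same cells H2-Q7 had 189 and 278 CPM, a ratio of 1.47 (1.41 to 1.54), Nlrc5 had 82.3 and 113 CPM, a ratio of 1.37 (1.28 to 1.46), and H2-Q6 had 48.7 and 59.1 CPM, a ratio of 1.21 (1.11 to 1.32). A cluster of cells with few UMIs (311 and 313 cells) went the other way for H2-K1, with 1876 and 1584 CPM, a ratio of 0.844 (0.790 to 0.901). The third, led by Zfp804b and Ralyl, came almost wholly from the library labelled KPC-shZEB1 (9 and 224 cells, 96.1%). Its 224 cells had 2383 CPM of H2-K1, 968 of H2-D1 and 138 of Nlrc5, and 178 of H2-Q7.

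Without that Zfp804b cluster the classical ratio of tumour-like cells was 1.05 and the nonclassical ratio 1.31. All 10 genes were then higher in the library labelled KPC-shZEB1, as were 59.1% of all genes tested. Past 1.5-fold was 1 of the 10, again H2-M2, against 10.7% of all genes higher and 3.67% lower by that fold. H2-Q7 then had the largest log2 ratio of the 10, at 0.52. An unnamed cluster led by Prg4 and Cntn5 (501 and 202 cells) had 1112 and 1159 CPM of H2-K1 and 112 and 113 CPM of Nlrc5, and 184 and 257 CPM of H2-Q7, a ratio of 1.39 (1.31 to 1.48). Markers of other cells moved with the comparison: in tumour-like cells the 10 monocyte-macrophage markers summed to 831 and 1929 CPM, the 7 T markers to 15.9 and 38.5 CPM and the 7 granulocyte markers to 1283 and 569 CPM, with 0 markers of these lists absent. With the profile of the whole library subtracted as background RNA, the classical ratio was 1.19 and the nonclassical ratio 1.23.

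**Figure D4:**
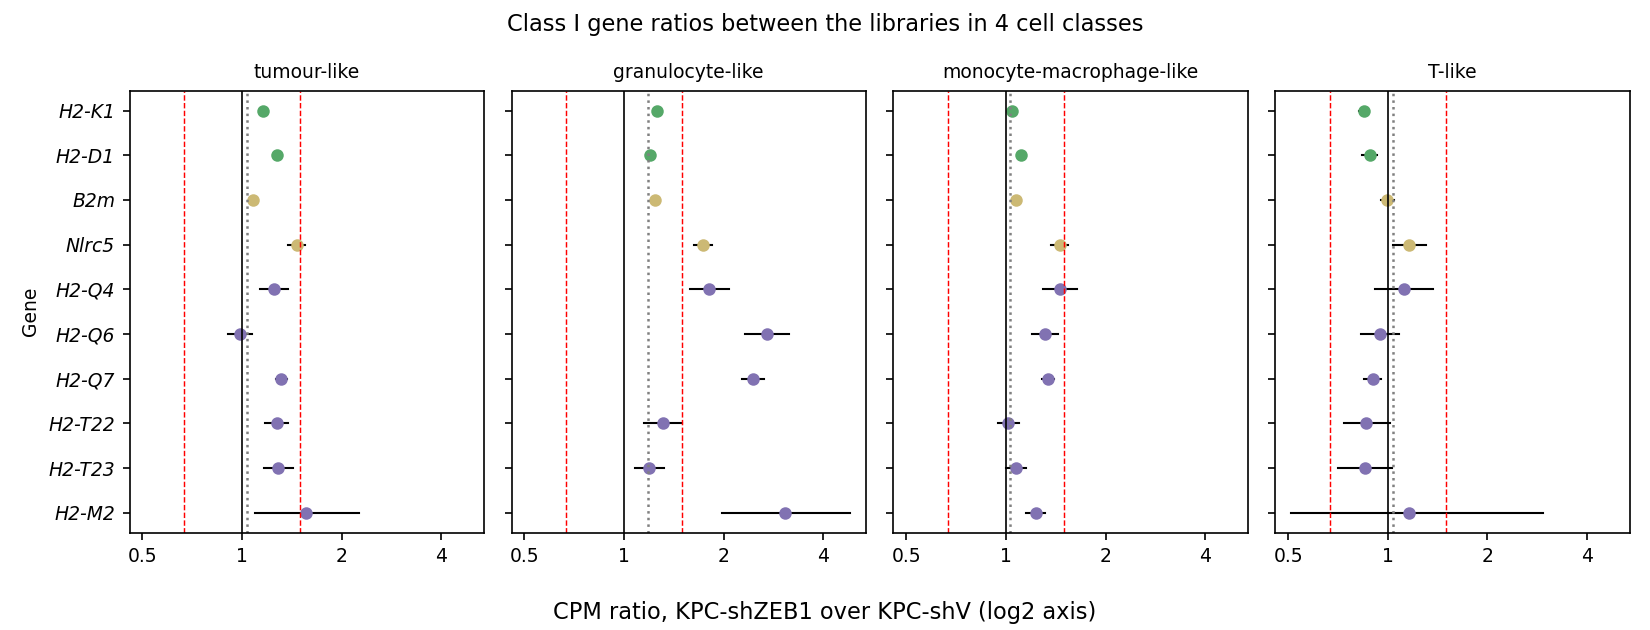
Ratio of CPM, KPC-shZEB1 over KPC-shV by their labels (log axis), for each of the 10 genes in tumour-like, granulocyte-like, monocyte-macrophage-like and T-like cells, with 95% counting intervals. Green points are classical genes, purple points nonclassical genes and yellow points B2m and Nlrc5, the grey dotted line is the median of all genes and the red dashed lines mark 1.5-fold. H2-Q6 (2.70) and H2-Q7 (2.45) stand apart in granulocyte-like cells, and 7 of the 10 lie below 1 in T-like cells.

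Granulocyte-like cells, the main class with the least H2-K1, had larger ratios than tumour-like cells for every member but H2-D1 and H2-T23, where they were smaller. H2-Q7 measured 49.9 CPM (95% interval 47.1 to 52.9) and 122 CPM (116 to 128), a ratio of 2.45 (2.27 to 2.64), and a UMI of it was found in 13.7% (12.9 to 14.6) and 27.8% (26.5 to 29.2) of cells. H2-Q6 had 12.1 and 32.7 CPM, a ratio of 2.70 (2.32 to 3.15), and H2-Q4 had 17.9 and 32.5 CPM, a ratio of 1.81 (1.58 to 2.08). Nlrc5 had 86.8 and 151 CPM, a ratio of 1.73 (1.63 to 1.85). The classical genes differed less, with H2-K1 at 883 and 1107 CPM, a ratio of 1.254 (1.23 to 1.28), and H2-D1 at 618 and 738 CPM, a ratio of 1.19 (1.16 to 1.23). B2m had a ratio of 1.24 (1.21 to 1.27), H2-T22 of 1.31 (1.15 to 1.497) and H2-T23 of 1.19 (1.08 to 1.32).

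Summed, the Q genes had 79.9 and 187 CPM, a ratio of 2.34 (2.21 to 2.49), and the T genes 64.3 and 79.4 CPM, a ratio of 1.23 (1.14 to 1.34), beside 1.23 for the classical sum. All 10 members were higher, and 5 were past 1.5-fold: Nlrc5, H2-Q4, H2-Q6, H2-Q7 and H2-M2, the last with only 1.49 and 4.55 CPM. Of the 13794 genes tested here 75.3% were higher, 24% at least 1.5-fold higher and 3.31% at least 1.5-fold lower. The median log2 ratio was 0.58 for the members and 0.24 for all genes, or 0.08 for genes at 50 CPM or more. Relative to that last shift the classical ratio was 1.16 and the nonclassical ratio 1.76.

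The Q gene sum was higher in each of the 6 larger clusters of the class, with ratios from 1.54 to 2.46. Of the single Q genes, H2-Q6 had its interval above 1 in 5 of 6 clusters. H2-Q4 did so in 4 of 6, with a lowest ratio of 1.0003. H2-Q7 was higher in the library labelled KPC-shZEB1 in 6 of 6 granulocyte-like clusters, each with its interval above 1, and ratios ran from 1.37 to 2.73. The lowest was in the cluster led by Ccl3, at 63.9 and 87.9 CPM. A cluster led by the interferon-induced genes Rsad2 and Ifit1 had the highest, at 46.5 and 127 CPM. Clusters led by Retnlg and Ngp (34.1 and 83.2 CPM), Ero1l (40.6 and 72.3 CPM), Med12l (75.3 and 156 CPM) and Cstdc4 (41.8 and 89.6 CPM) lay between them. H2-K1 differed little in most of them, for example 714 and 793 CPM in the Retnlg cluster and 701 and 714 CPM in the Cstdc4 cluster, and its ratios ran from 1.02 to 1.19.

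Nlrc5 was highest in the Rsad2 and Ifit1 cluster, with 231 and 411 CPM, a ratio of 1.78 (1.61 to 1.97), against 60.6 and 110.4 CPM in the Med12l cluster and 57.3 and 81.6 CPM in the Ccl3 cluster. The Rsad2 cluster was also high for B2m, at 1417 and 1799.7 CPM, and for H2-T22, at 54.4 and 56.3 CPM, which did not differ between libraries there beyond counting error, at a ratio of 1.03 (0.805 to 1.32). H2-Q7, in contrast, was no higher in this cluster of KPC-shV than in the Med12l cluster. With the granulocyte-like clusters weighted to the KPC-shV mix, the classical ratio was 1.12 and the nonclassical ratio 1.63.

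Markers of lymphocytes and macrophages also moved in these cells. In granulocyte-like cells the 7 T markers summed to 15.6 and 45.3 CPM (2851 and 2623 CPM in T-like cells), the 6 B markers to 18.0 and 64.0 CPM (7909 and 6077 CPM in B-like cells), the 10 monocyte-macrophage markers to 1055 and 2614 CPM and the 7 acinar markers to 66.2 and 410.5 CPM, with 0 of them absent. When the profile of the whole library was subtracted as background RNA, the classical ratio was 1.204 and the nonclassical ratio 1.97.

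**Figure D5:**
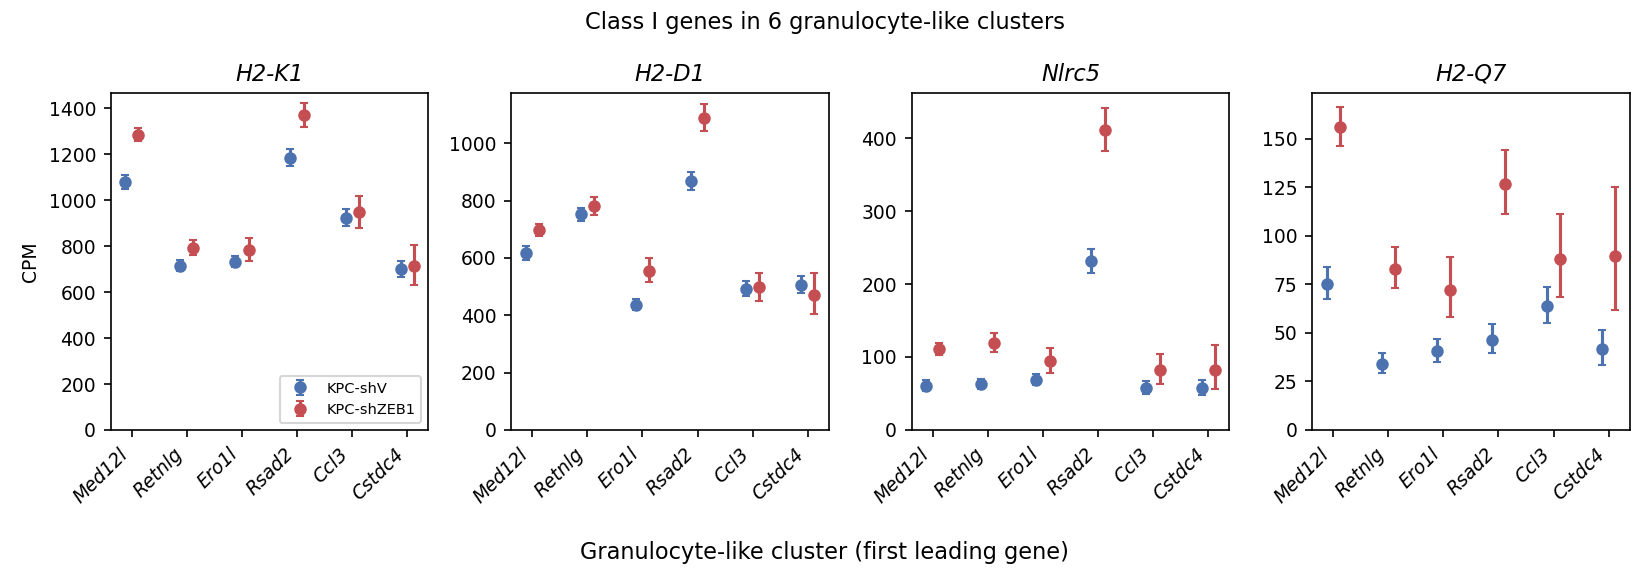
Levels of H2-K1, H2-D1, Nlrc5 and H2-Q7 in CPM in 6 granulocyte-like clusters named by leading genes, for the library labelled KPC-shV and the library labelled KPC-shZEB1, with 95% counting intervals. H2-Q7 is higher in the second library in 6 of 6 clusters, while the H2-K1 values lie close together in most, and Nlrc5 is highest in the cluster led by Rsad2 and Ifit1 (231 and 411 CPM).

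Monocyte-macrophage-like cells had all 10 genes higher in the library labelled KPC-shZEB1, where 58.3% of all genes tested were higher. Past 1.5-fold were 0 of the 10, against 10.3% of all genes higher and 2.25% lower by that fold. The median log2 ratio was 0.22 against 0.04 for all genes. Nlrc5 had 70.5 and 102 CPM, a ratio of 1.45 (1.37 to 1.54), and H2-Q7 had 148 and 198 CPM, a ratio of 1.34 (1.29 to 1.40), while H2-K1 had a ratio of 1.04 (1.03 to 1.05) and B2m of 1.07 (1.06 to 1.09). Monocyte-like cells differed more than macrophage-like cells: H2-K1 measured 1233 and 1538 CPM in the former, a ratio of 1.247 (1.21 to 1.29), and 1929 and 1897 CPM in the latter, a ratio of 0.983 (0.969 to 0.998). H2-Q7 had 86.2 and 169.7 CPM in monocyte-like cells, a ratio of 1.97 (1.76 to 2.21), and 159.5 and 194 CPM in macrophage-like cells, a ratio of 1.22 (1.16 to 1.28). In monocyte-like cells 3 of 9 members tested were past 1.5-fold, H2-Q4, H2-Q6 and H2-Q7, against 9.63% of all genes higher and 3.39% lower. Nlrc5 had 64.4 and 96.1 CPM in macrophage-like cells, a ratio of 1.49 (1.38 to 1.61).

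T-like cells went the other way for the classical genes. H2-K1 measured 2294 CPM (95% interval 2235 to 2355) and 1938 CPM (1906 to 1970.3), a ratio of 0.845 (0.819 to 0.871), and H2-D1 795 and 701 CPM, a ratio of 0.881 (0.837 to 0.929). H2-K1 was lower in the library labelled KPC-shZEB1 in CD4 T-like cells at 0.794 (0.747 to 0.844), CD8 T-like cells at 0.840 (0.798 to 0.885) and regulatory T-like cells at 0.891 (0.821 to 0.967). B2m was the same within counting error, at 1208 and 1205 CPM. H2-Q7 had 655 and 589 CPM, a ratio of 0.899 (0.849 to 0.953), and Nlrc5 was higher, with 166 and 193 CPM, a ratio of 1.16 (1.04 to 1.30). Altogether 3 of 10 members were higher, against 57.4% of all genes tested. Past 1.5-fold were 0 members, where 9.94% of genes were higher and 3.35% lower by that fold. The median log2 ratio was -0.12, against 0.05 for all genes. NK-like cells, of which there were 55 and 185, also had less H2-K1, 2582 and 2272 CPM, a ratio of 0.880 (0.820 to 0.945). Under the 10 alternatives run, the H2-K1 ratio of T-like cells lay between 0.815 and 0.858.

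Of the remaining classes, B-like cells had similar H2-K1 (1262 and 1283 CPM) and more B2m, 707 and 917 CPM, at a ratio of 1.30 (1.202 to 1.40). Nlrc5 had 58.6 and 113 CPM there, at a ratio of 1.93 (1.496 to 2.52). In these cells 2 of 9 members tested were past 1.5-fold, Nlrc5 and H2-Q4, against 13.4% of genes higher and 3.87% lower. cDC2-like cells (48 and 172) had 1109 and 1337 CPM of H2-K1, a ratio of 1.21 (1.12 to 1.30), and 74.7 and 134 CPM of Nlrc5, a ratio of 1.80 (1.35 to 2.44). Mature DC-like cells (37 and 100), the named class with the most Nlrc5, had 279 and 336 CPM of it and 2265 and 2041 CPM of H2-K1. Endothelial-like cells had 1194 and 1508 CPM of B2m, a ratio of 1.26 (1.201 to 1.33), and 87.2 and 124 CPM of Nlrc5, a ratio of 1.42 (1.18 to 1.71). Fibroblast-like cells, the main class with the least Nlrc5, had 23.5 and 31.9 CPM of it, and H2-Q7 there had 95.1 and 135 CPM, a ratio of 1.42 (1.32 to 1.54), with H2-K1 at 1.03 (1.01 to 1.06).

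Pericyte-like cells (14 and 10 cells) are left out of the following counts. The ratio of Nlrc5 was above 1 in 9 of the 9 other main classes, with the interval above 1 in 8. It ran from 1.01 in NK-like cells to 1.93 in B-like cells. In NK-like cells it stayed above 1 in 4 of 8 alternatives, with a lowest value of 0.879 as a mean over cells. B2m was above 1 in 8 of 9, with 8 intervals above 1, and H2-Q7 in 8 of 9, with 6 intervals above and 1 below. H2-K1 was above 1 in 7 of 9, with 4 intervals above and 2 below, those of T-like and NK-like cells. H2-D1 had 5 intervals above and 1 below.

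For the genes that supply and load peptides, tumour-like cells had all 13 of a list higher in the library labelled KPC-shZEB1, against 57.7% of all genes. The list was chosen with earlier results of these data known. Of the 13, 9 were past 1.5-fold, where 13.9% of all genes were higher by that fold. The median log2 ratio of the 13 was 0.85, against 0.05 for all genes. Psmb8, a subunit of the immunoproteasome, had 154 and 302 CPM, a ratio of 1.96 (1.88 to 2.04). Tap1, a subunit of the peptide transporter, had 62.1 and 102 CPM, a ratio of 1.64 (1.54 to 1.76), and Tapbp, the tapasin that bridges it to class I, 80.1 and 145 CPM, a ratio of 1.81 (1.71 to 1.92). The peptide editor gene Tapbpl had 4.99 and 12.4 CPM, whereas the folding enzyme gene Pdia3 had 527 and 556 CPM. Without the Zfp804b cluster 13 of 13 were higher (59.1% of all genes), 8 past 1.5-fold (10.7% of all genes), with a median of 0.61. In granulocyte-like cells 13 of 13 were higher and 9 past 1.5-fold, with a median of 0.67, and Psmb8 had 98.9 and 214 CPM. Of all genes 75.3% were higher there and 24% past that fold, with a median of 0.24. In monocyte-macrophage-like cells 10 of 13 were higher and 0 past 1.5-fold, with a median of 0.31. All genes there had 58.3% higher, 10.3% past that fold and a median of 0.04. In T-like cells 9 of 13 were higher and 0 past 1.5-fold, with a median of 0.13, against 57.4%, 9.94% and 0.05 for all genes.

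Of 17 regulators 12 were higher in tumour-like cells and 3 past 1.5-fold, with a median log2 ratio of 0.10. Of all genes tested 57.7% were higher, 13.9% past 1.5-fold, so these counts were near the background. Among the 3 were Irf1, a transcription factor induced by interferon (192 and 323 CPM), and Ciita, the class II counterpart of Nlrc5 (ratio 2.29). Rfx5, which is part of the complex that binds the X box, had 6.03 and 6.64 CPM, a ratio of 1.10 (0.871 to 1.39). Granulocyte-like cells had 14 of 17 higher and 3 past 1.5-fold, against 75.3% and 24% of all genes, with Irf1 (239.8 and 418 CPM) and Ciita (2.10 and 6.87 CPM) among them. B-like cells had 160 and 147 CPM of Ciita, and background RNA was not subtracted for this gene in either class. Irf1 was also past 1.5-fold in monocyte-macrophage-like cells, with 95.3 and 166 CPM. The 7 interferon receptors and kinases were all higher in tumour-like cells and 0 past 1.5-fold, with a median of 0.12 against 0.05 for all genes.

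Of 19 other class I genes listed, 15 were analysed and 9 could be tested in tumour-like cells, where 7 were higher and 4 past 1.5-fold, with a median log2 ratio of 0.38, beside 57.7% and 13.9% of all genes and a median of 0.05. H2-M3, which presents N-formylated peptides, had 10.7 and 19.8 CPM, a ratio of 1.85 (1.58 to 2.17), and Raet1e, a ligand of the activating receptor NKG2D, had 5.09 and 10.9 CPM, a ratio of 2.13 (1.70 to 2.69). Raet1e was higher in granulocyte-like cells (23.4 and 54.0 CPM) and B-like cells (84.4 and 145 CPM), while fibroblast-like cells had 5.32 and 7.06 CPM. Background RNA was subtracted for the 10 members but not for genes of the pathway lists, so their ratios have no such check. In granulocyte-like cells 10 of 10 tested were higher and 5 past 1.5-fold, where 75.3% and 24% of all genes were, and H2-Q10 had 90.1 and 126 CPM. Receptor genes of class I were mostly those of lymphocytes: 11 of 14 could be tested in tumour-like cells, 6 were past 1.5-fold higher and 1 lower, against 13.9% and 4.32% of all genes. The lower one was Klrc1, which encodes NKG2A, at 7.86 and 3.09 CPM. In the same tumour-like cells the T markers summed to 15.9 and 38.5 CPM and the NK markers to 6.92 and 19.3 CPM. Whether the receptor UMIs there were background RNA from lymphocytes was not tested. In T-like cells 2 of 12 tested were higher and 0 past 1.5-fold, where 57.4% of all genes were higher and 9.94% past that fold.

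Over 32 units, each a cell class of 1 library with at least 50 cells, the members did not form 1 pattern. Correlations below are of log2(CPM + 1), and units of 1 library share its background RNA. H2-Q6 and H2-Q7 had r = 0.95, H2-K1 and H2-Q7 0.83, H2-K1 and H2-D1 0.78, H2-K1 and Nlrc5 0.54 and B2m and H2-Q6 -0.02. B2m, the partner of every heavy chain, was closer to H2-M2 (0.67). Among 7607 other genes the classical sum was most like AW112010 (0.88) and Tnfrsf9 (0.85), an activation receptor of lymphocytes, followed by Plaat3, Rnaset2b and Mmd. Nlrc5 was most like Traf1 (0.81), Arid4a (0.78) and Ly75 (0.76), then Pcgf5 and Mtmr14. The Q genes were most like Lrch3 (0.92), Ubr2, Slc35e2, Fryl and Vgll4. H2-T23 was most like Sh3bgrl3 (0.86), Myo1g, Tmsb4x, AI662270 and Pik3cg. H2-M2 was most like the macrophage genes Ccl8 (0.88), Ms4a7 (0.87), Dnase1l3, C1qc and Apoe, although the sub-cluster led by Ptprm, Bmp2 and Ccl8 had almost none of it.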

How the data were processed

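Single-cell RNA was measured in 1 KPC-shV tumour and 1 KPC-shZEB1 tumour with the 10x 3′ v3.1 chemistry. The deposited matrices are raw UMI counts for each gene in each barcode. The authors produced them by running Cell Ranger 7.0.1 on the mm10 mouse genome, per the submitters' processing notes. They hold the barcodes that Cell Ranger called, unfiltered by the study, and whether intron reads were counted is not given in the sources used here. The libraries held 12594 and 13271 barcodes with 130941086 and 143461224 UMIs. Samples were grouped by their labels.

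Following the study's methods, a cell needed 500 genes or more, between 1000 and 60000 UMIs, and no more than 15% of them mitochondrial. Then 301 and 319 cells with a Scrublet score above 0.2 were removed as doublets. The libraries shared 46 barcodes, of which 36 were kept in both. Both libraries were clustered together without alignment (scanpy 1.11.5, leidenalg 0.10.2, Python 3.11.15) on 30 principal components of 3000 variable genes, with 20 neighbours and resolution 1. The class I genes and the pathway lists were kept out of the variable genes. T, NK and myeloid clusters were clustered again at resolution 1.5. A cluster took the name whose markers scored highest, given at least 3 detected markers. The rule that scores the markers was refined after the clusters had been seen. Clusters led by Prg4 and Cntn5 (501 and 202 cells), Ctrb1 and Reg3b (21 and 289), Mcpt1 and Mcpt2 (48 and 93) and Mmp7 and Dcdc2a (7 and 28) stayed unnamed.

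UMIs of a gene were summed over the cells of a class in each library and given as CPM with exact Poisson 95% intervals. Ratios have exact intervals conditional on the summed count, and shares carry Clopper-Pearson intervals, also exact (scipy 1.17.1, numpy 2.4.6). Genes with at least 30 UMIs over both libraries were tested against the 1.5-fold limit, and log2 ratios have 1 CPM added to both values. A UMI count is not divided by transcript length. With 1 library per group, mouse, tumour, dissociation and library cannot be told apart from the hairpin. The intervals were checked on simulated Poisson counts, which hold counting error only, so the check does not cover spread between cells or mice.

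The genes named are the 10 members, genes of 5 pathway lists, and for 5 patterns the 5 genes with the highest Pearson correlation. The pathway genes named in the text were picked from their lists after values were seen, and the lists' counts cover all tested genes. Some items are not reported here. The members and lists were chosen with earlier results of these data known. Alternatives for filters, doublets, clustering, scaling, background RNA and the clusters used were computed. Figures were drawn with matplotlib 3.10.9.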

Additional observations from a re-analysis of the deposited data

Results flagged for a closer look

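The classical genes and H2-Q7 were lower in the library labelled KPC-shZEB1 in T-like cells and higher in granulocyte-like cells, and H2-K1 was also lower in NK-like cells. The ratio of H2-K1 was 0.880 in NK-like cells and 0.845 in T-like cells, against 1.254 in granulocyte-like cells. H2-D1 had 0.881 in T-like cells and 1.19 in granulocyte-like cells. H2-Q7 had 0.899 in T-like cells and 2.45 in granulocyte-like cells. With 1 library per group these differences between cell classes were not tested.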

How the results depend on the processing

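With 1 library per group, no result has a replicate check. In tumour-like cells the classical ratio of 1.19 was 1.11 with a looser cell filter, 1.12 with no doublet removal, 1.09 as a mean over cells, 1.11 at a clustering resolution of 0.5, 1.12 with each library clustered alone and 1.05 without clusters mostly of 1 library. Alternatives chosen after seeing the data gave 1.248 with the Prg4 and Cntn5 cluster and 1.21 without clusters of few UMIs. The nonclassical ratio of 1.26 was 1.34 with the looser filter, 1.34 with no doublet removal, 1.15 as a mean over cells, 1.33 at resolution 0.5 and 1.31 without clusters mostly of 1 library. The 1 member past 1.5-fold became 0 as a mean over cells, 7 when a difference of 25% was enough and 0 at a fold of 2. The share of all genes was not computed under these 3 settings, so their counts have no background beside them. The upper quartile of the log2 ratios of all genes tested was 0.26. In granulocyte-like cells the classical ratio of 1.23 was 1.204 with background RNA subtracted, 1.16 relative to the median of genes at 50 CPM or more and 1.12 at the KPC-shV mix of clusters, the last chosen after seeing the data. The nonclassical ratio of 1.86 was 1.97, 1.76 and 1.63 under the same settings. The shares of macrophage-like cells with an H2-M2 UMI were 2.98% and 3.57% after thinning. The H2-M2 ratio in tumour-like cells, 1.56, reversed to 0 with background RNA subtracted, because its level there fell below the background. The subtraction took between 12.6% and 24.3% of the UMIs of a class as background. Of 90 member ratios by class, 75 stayed on the same side of 1 in every alternative run, and of 13 past 1.5-fold 12 did. These counts used no limit on UMIs. The 13 include H2-M2 in B-like (2 and 16 UMIs), NK-like (1 and 2) and endothelial-like cells (2 and 7). No share of all genes was computed for the 90 or the 13. The cause of the other changes was not tested. No paired analysis was possible because each group has 1 sample.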
